A study of Mus musculus with 225 samples.

Results

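The genes described here are 7 transcription factors of the Sall and Irx families, Sall1, Sall3, Sall4, Irx1, Irx2, Irx3 and Irx5. They were chosen by name, not by any measured value, from the 23165 genes of the raw count table, and all 7 have a row there. The normalized table of 10948 genes holds 5 of them; Irx3 and Irx5, each read in fewer than 10% of the cells of either tissue, are not in it.

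Single cells were taken from the forelimb of mouse embryos at embryonic day 12.5, either from the autopod, the future hand, or from the zeugopod, the future forearm. All embryos were Hoxd11::GFP heterozygotes on a mixed C57Bl6CBAF1 background, so that in both tissues 1 copy of Hoxd11 is inactivated by the inserted tau-GFP, and only the brightest GFP cells were sorted and captured on Fluidigm C1 chips. Of 225 cells sequenced, the study retained 76 autopod cells (59 in run NXT0072, 17 in run NXT0143) and all but 6 zeugopod cells (58 in run NXT0142, 65 in run NXT0143). Each tissue is 1 pool of dissociated forelimbs of littermates and the labels name no embryo for a cell. Cells were therefore not used as replicates, no test was made between the tissues, and run and tissue could be compared side by side only within NXT0143. Since only the brightest cells were sorted, every share is one of bright GFP cells and not of the limb.

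The Sall proteins are zinc finger transcriptional regulators. Mutations of human SALL1 and SALL4 cause Townes-Brocks and Duane-radial ray syndromes, both with defects of the thumb or radius, and in the mouse Sall1 and Sall3 act redundantly in the autopod. The Irx proteins are TALE-class homeodomain factors encoded in clusters: Irx1, Irx2 and Irx4 form IrxA, and Irx3, Irx5 and Irx6 form IrxB. Irx1 and Irx2 mark the forming digit condensations and joints, while Irx3 and Irx5 together are needed early for the proximal and anterior skeleton of the hindlimb.

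On GRCm38, Irx1 lies at chr13:71957921-71963723 on the minus strand and Irx2 at chr13:72628820-72634198 on the plus strand, 665096 bases apart. Irx3 (chr8:91798525-91802067, minus strand) and Irx5 (chr8:92357625-92376286, plus strand) are 555557 bases apart. Part of the Irx3 exons overlaps those of the antisense gene Irx3os. The library kit does not mark strand, and reads from such a shared stretch cannot be told apart.

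Members of the Irx family share the homeobox, and this bears on whether a read can be given to 1 of them. The 75 coding bases of Irx1 most alike in the other Irx members were taken from the GENCODE vM21 transcripts (GRCm38). Capitals mark the bases that differ from Irx1, each sequence reads 5′ to 3′ on the strand of its gene, and each window lies in 1 coding exon (Irx1 chr13:71960058-71960132, Irx2 chr13:72630712-72630786, Irx3 chr8:91800562-91800636, Irx5 chr8:92359675-92359749).
Irx1: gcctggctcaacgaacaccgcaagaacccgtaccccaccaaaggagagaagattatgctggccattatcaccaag
Irx2: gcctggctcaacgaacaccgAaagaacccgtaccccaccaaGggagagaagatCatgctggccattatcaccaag
Irx3: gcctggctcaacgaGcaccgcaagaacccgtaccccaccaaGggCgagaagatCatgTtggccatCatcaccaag
Irx5: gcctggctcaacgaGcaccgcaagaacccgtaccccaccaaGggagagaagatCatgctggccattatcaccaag

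Irx2 and Irx5 each differ from Irx1 at 3 of these 75 bases, and Irx3 at 6. The longest identical coding stretch was 65 bases, between Irx2 and Irx5, followed by 50 bases between Irx3 and Irx5 and 32 bases between Irx1 and Irx2. No pair of the 4 Irx genes, and no pair of the 3 Sall genes, shared a whole stretch of 75 coding bases, the length of a read. Reads in this window therefore name their gene by a few bases only, while the remainder of the coding sequence is more distinct. Reads were mapped in local mode, which allows clipped ends, and how many were set aside or misplaced here was not tested.

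The depth of the retained cells was similar in range between the tissues, from 187344 to 9437447 reads on genes in autopod cells and from 186271 to 6801278 in zeugopod cells, with medians of 3684 and 3995 genes detected. The tissue labels were checked with genes that define them: Hoxd13 had at least 5 reads in 65 of 76 autopod cells and 1 zeugopod cell, and Shox2 in 0 and 73. By run, Hoxd13 was present in 54 of 59 autopod cells of NXT0072 and 11 of 17 of NXT0143. No retained cell had 3 muscle, epithelial or endothelial markers or 2 macrophage markers. Of 7 genes foreign to limb mesenchyme, Ins2, Neurod1, Tyr and Gfap reached 5 reads in 0 cells, Alb in 1 and Myh6 in 7, but Cdx2 did so in 42 cells (21.1%), never above 18 reads. Values of 5 to 18 reads were thus also seen for a gene of the hindgut.

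A member was counted as present in a cell at 5 or more reads. At least 1 of the 7 was present in 46 of 76 autopod cells (60.5%, 95% Clopper-Pearson interval 48.6 to 71.6) and in 45 zeugopod cells (36.6%, 28.1 to 45.7). Within NXT0143 the shares were 64.7% (11 of 17) and 30.8% (20 of 65), and in the other runs 59.3% (35 of 59) and 43.1% (25 of 58). With each cell thinned to 500000 reads the shares were 34.7% (25 of 72, interval 23.9 to 46.9) and 28.6% (34 cells, 20.7 to 37.6), and these intervals overlap. The gap between the tissues was then smaller, as it also was without thinning at a minimum of 20 reads (42.1% and 28.5%). On all reads, the median depth was 2.83e+06 reads on genes in the autopod and 3.23e+06 in the zeugopod. The part of depth in the gap was not tested. Before thinning the gap was one of Irx genes: 31 of 76 autopod cells (40.8%) and 12 zeugopod cells (9.76%) had at least 1 of them, whereas a Sall gene was present in 24 of 76 (31.6%) and 35 (28.5%). These and all later intervals cover counting error only, since reads carry no molecular identifiers and cells come from 1 pool per tissue.

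**Figure D1:**
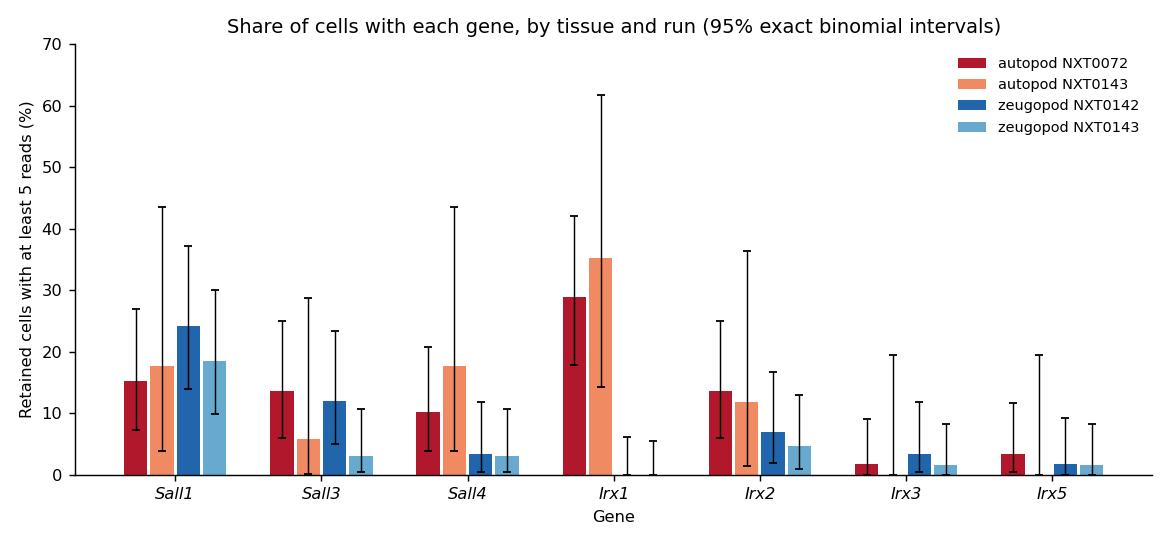
Percent of retained cells with at least 5 reads (y axis, from 0) for each gene (x axis), with 1 bar for each tissue and run and 95% exact binomial intervals as lines. Irx1 has bars in the autopod runs alone (28.8% and 35.3%), whereas the Sall1 bars stand between 15.3% and 24.1% in every tissue and run.

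Irx1 was the member found most often in the autopod and the one missing from the zeugopod. It was present in 23 of 76 autopod cells (30.3%, 20.2 to 41.9). NXT0072 held 17 of these (of 59 cells) and NXT0143 held 6 (of 17 cells). In the zeugopod it was present in 0 cells, a count that still leaves room for a share of 2.44% (3 counts of the cells) or 2.95% (upper end of the interval), and a single read in a single cell of NXT0142 was all that was seen. Within NXT0143, 0 of 65 zeugopod cells had any read of it, beside the 6 of 17 autopod cells.

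In the 23 autopod cells, Irx1 ranged from 5 to 634 reads, or from 0.765 through a median of 14.02 to 335 CPM, the reads of a gene scaled to a common total of reads on genes in each cell. Of those cells 15 had 20 reads or more, above the highest Cdx2 value. Pooled over all reads, Irx1 was at 10.4 CPM in the autopod (exact Poisson interval 10.0 to 10.8), and the cell with most reads held 25.01% of them, so no single cell carried the value. By run the autopod was at 9.49 CPM in NXT0072 (9.07 to 9.92) and 14.7 CPM in NXT0143 (13.6 to 15.9). These intervals do not overlap, but they leave out the spread between cells. The cell with most reads held 33.2% of the reads in NXT0072 and 33.9% in NXT0143. The shares of cells with Irx1 in these runs had intervals that overlap (17.8 to 42.1% and 14.2 to 61.7%).

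The same gene led the members when tissues were compared on the normalized scale. The mean of log2(normalized value + 1) was 1.83 ± 2.15 (SD over 76 cells) in the autopod and 0.51 ± 0.03 (SD over the retained cells) in the zeugopod, the latter being the floor that the table gives to a gene with 0 reads. The difference of 1.32 log2 units ranked 145 of 10948 genes, and it was 1.94 within NXT0143 and 1.13 for NXT0072 autopod cells against NXT0142 zeugopod cells. A difference of at least 1 log2 unit with the same sign in both run comparisons was found for 2.47% of all genes toward the autopod and for 4.29% toward the zeugopod. Such differences were more frequent among genes found more often. Of the 8986 genes present in 10% or more of autopod or zeugopod cells, 8.24% had one, counting both directions. With this limit raised to 25%, the share was 14.3% of 4898 genes, and Irx1 was the only member among those. Irx1 was 1 of the 5 normalized members past that size, and the only one. With a pseudocount of 10 in place of 1 its difference was 0.60, below the size used.

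A gene seen in many autopod cells was seldom without zeugopod cells. Among the 3148 genes present in at least as many autopod cells as Irx1, 3 (0.0953%) were present in 0 zeugopod cells: Irx1, Tfap2b, an AP-2 transcription factor (23 autopod cells), and Evx2, the homeobox gene next to Hoxd13 (30 autopod cells). This comparison was chosen after the Irx1 values were seen, so it is a description.

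**Figure D2:**
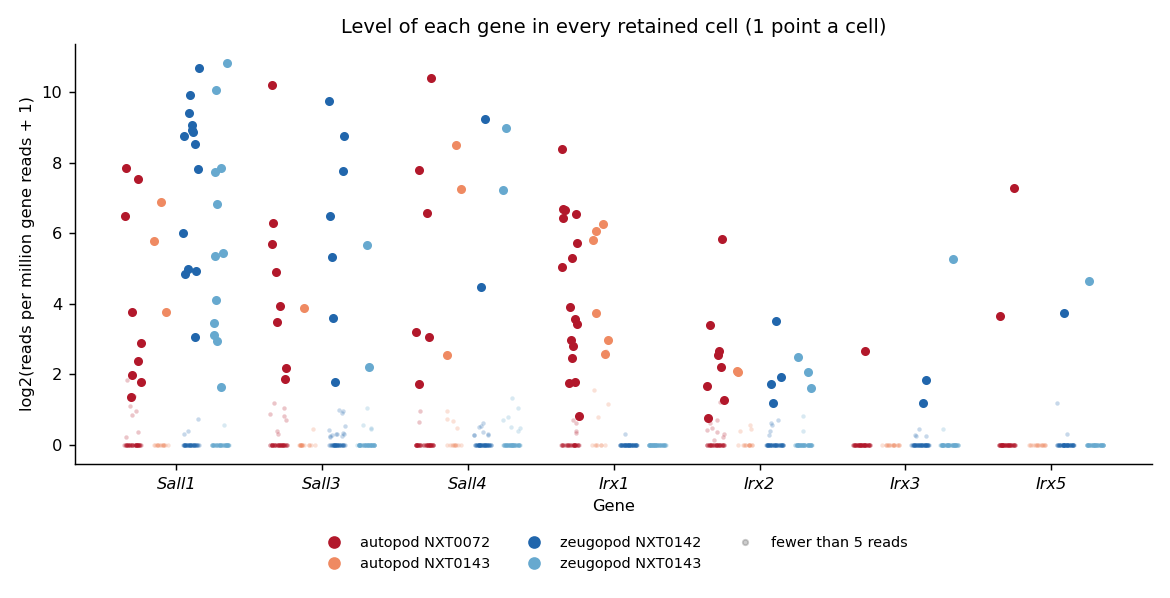
Level of each gene in every retained cell, as log2(CPM + 1) on the y axis, with 1 point a cell coloured by tissue and run and small pale points for cells with fewer than 5 reads. Irx1 has large points in autopod cells alone, up to 335 CPM, whereas the highest Sall1 points, up to 1807 CPM, are zeugopod cells.

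Irx2, the IrxA neighbour of Irx1, was present in both tissues, at low counts. It was found in 10 of 76 autopod cells (13.2%, 6.49 to 22.9) and 7 zeugopod cells (5.69%, 2.32 to 11.4), and these intervals overlap. Its counts ran from 5 through a median of 10.5 to 183 reads in the autopod and from 6 through 10 to 39 in the zeugopod. Only 3 of the 17 cells had 20 reads or more, and the other 14 were in the range that Cdx2 also reached. The cell with 183 reads held 60.2% of all Irx2 reads of the autopod. The difference between the tissues on the normalized log2 scale was 0.26, and 0.23 within NXT0143 and 0.24 between the other runs.

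The IrxB genes were rare. Irx3 was present in 1 autopod cell with 24 reads and in 3 zeugopod cells, with 1.26, 2.56 and 37.4 CPM and 5 and 8 reads in the lower pair, or 1.32% (0.0333 to 7.11) and 2.44% (0.506 to 6.96) of cells. Irx5 was present in 2 autopod cells with 63 and 696 reads and in 2 zeugopod cells with 58 and 83 reads, or 2.63% (0.320 to 9.18) and 1.63% (0.198 to 5.75). Neither gene differed in share between the tissues by more than these intervals, and with 4 cells each no difference was detectable at this number of cells. Of the family members outside the 7, Irx4 and Irx6 reached 5 reads in 0 cells, with at most 2 and 3 reads in a cell.

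Sall1 (chr8:89027235-89044162, minus strand) was the member found most often in the zeugopod. It was present in 26 zeugopod cells (21.1%, 14.3 to 29.4) and in 12 of 76 autopod cells (15.8%, 8.43 to 25.96), intervals that overlap widely. The cells that had it held more of it in the zeugopod, with a lowest, median and highest level of 2.13, 162 and 1807 CPM, than in the autopod, with 1.55, 12.6 and 230 CPM. Pooled, this was 76.7 CPM (75.8 to 77.5) in the zeugopod and 13.1 CPM (12.6 to 13.5) in the autopod. The cell with most reads held 24.3% of the Sall1 reads in the zeugopod and 42.2% in the autopod. The autopod value is mostly that of the cells A_86 and A_55, with 1342 and 1333 of 3182 reads.

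That gap in level was not the same in every run. In the zeugopod, the median level of cells with Sall1 was 400 CPM in NXT0142 (14 cells) and 40.8 CPM in NXT0143 (12 cells), while in the autopod it was 6.45 CPM in NXT0072 (9 cells) and 53.4 CPM in NXT0143 (3 cells). On the normalized log2 scale the tissues differed by -0.57 (autopod minus zeugopod) over all cells, by -1.03 between NXT0072 and NXT0142, and by -0.08 within NXT0143, where both tissues were sequenced together. The direction held in both comparisons, but within the shared run the value was near the median over all genes of 0.06. Run and tissue cannot be told apart in the larger value.

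Sall3 (chr18:80966376-80986771, minus strand) was present in 9 cells of each tissue, 11.8% of autopod cells (5.56 to 21.3) and 7.32% of zeugopod cells (3.40 to 13.4). By run, it was present in 8 of 59 autopod cells in NXT0072 and 1 of 17 in NXT0143. In the zeugopod it was present in 7 of 58 cells in NXT0142 and 2 of 65 in NXT0143. Within each tissue the intervals of the 2 runs overlap. Levels ran from 2.66 through 14.3 to 1169 CPM in the autopod and from 2.45 through 49.7 to 862 CPM in the zeugopod. A single cell held 81.2% of the autopod reads of Sall3, so its pooled level of 14.9 CPM there is mostly that of this cell. The difference on the normalized log2 scale was 0.16 over all cells, 0.07 within NXT0143 and -0.04 between the other runs, so its sign was not the same in all.

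Sall4 (chr2:168748332-168767943, minus strand) was present in 9 of 76 autopod cells (11.8%, 5.56 to 21.3) and 4 zeugopod cells (3.25%, 0.893 to 8.12), and these intervals overlap. The autopod cells had 7 to 4629 reads and levels from 2.33 through 93.8 to 1342 CPM, and the zeugopod cells 77 to 2795 reads and levels from 21.1 through 326 to 604 CPM. The share was higher in the autopod in both comparisons, 3 of 17 against 2 of 65 cells within NXT0143 and 6 of 59 against 2 of 58 cells in the other runs. The difference on the normalized log2 scale was 0.43, with 0.78 and 0.34 in these comparisons, which is below 1 log2 unit in each. Few cells carried it: the highest autopod cell held 62% of its reads there and the highest zeugopod cell 67.9%. Its exons overlap those of the antisense gene Gm14261 over 526 bases, where reads of the 2 genes cannot be told apart.

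Sall2, the family member that was not among the 7, was more widespread than any of them, in 24 of 76 autopod cells (31.6%) and 45 zeugopod cells (36.6%). Its difference on the normalized log2 scale was 0.02.

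Levels can be compared between genes only on the normalized scale, which is divided by gene length. Among autopod cells with the gene, the median normalized value was highest for Sall4 at 87.5, followed by Irx1 at 24.8, Sall1 at 12.7, Sall3 at 7.98 and Irx2 at 3.80. In the zeugopod the order was Sall4 at 103.8, Sall1 at 40.1, Sall3 at 26.1 and Irx2 at 2.43. Neighbours in these orders did not differ beyond their spread: the autopod values ran from 0.997 to 749 for Sall4, from 0.841 to 398 for Irx1 and from 0.761 to 553 for Sall1.

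How many cells counted as having a gene depended on the read minimum, and more so for some members than for others. From a minimum of 1 read to one of 20, the autopod cells with Irx1 went from 32 to 15 and those with Irx2 from 22 to 2, while the zeugopod cells with Sall1 went from 30 to 24. Sall3 and Sall4 had many cells with 1 to 4 reads (25 and 21 over both tissues), and in the zeugopod their cells went from 26 to 7 and from 19 to 4. At every one of these minimums Irx1 was present in the most autopod cells and Sall1 in the most zeugopod cells.

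**Figure D3:**
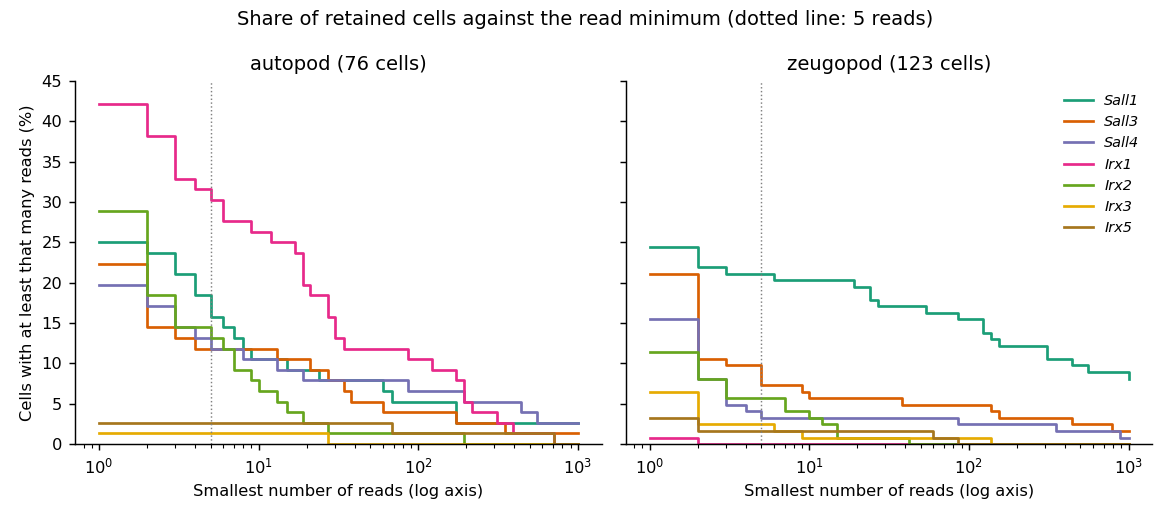
Percent of retained cells with at least a given number of reads (y axis) against that number (x axis, log scale) for the 7 genes, with autopod cells on the left and zeugopod cells on the right. The Irx1 line starts at 42.1% of autopod cells for 1 read and is at 19.7% for 20 reads, whereas in the zeugopod the Sall1 line stays nearly flat, at 24.4% and 19.5%.

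Most cells with a member had just 1. Of the autopod cells 33 had 1 member, 8 had 2, 3 had 3 and 2 had 4, and of the zeugopod cells 40 had 1, 4 had 2 and 1 had 3. At least 2 members were present in 13 of 76 autopod cells (17.1%, 9.43 to 27.5) and 5 zeugopod cells (4.07%, 1.33 to 9.23). Cells with at least 2 had a median of 4300 genes detected in the autopod and 4729 in the zeugopod, beside 3547 and 3991.5 in cells with none. How far depth alone gives these counts was not tested.

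The 2 autopod cells with 4 members held different sets. The cell A_43 had 323 reads of Sall3, 393 of Sall4, 29 of Irx1 and 6 of Irx2, and the cell A_82 had 7 of Sall1, 12 of Sall3, 24 of Irx3 and 696 of Irx5. The first combines Sall genes with the IrxA pair and the second with the IrxB pair. Both came from NXT0072, with 4152 and 5833 genes detected.

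**Figure D4:**
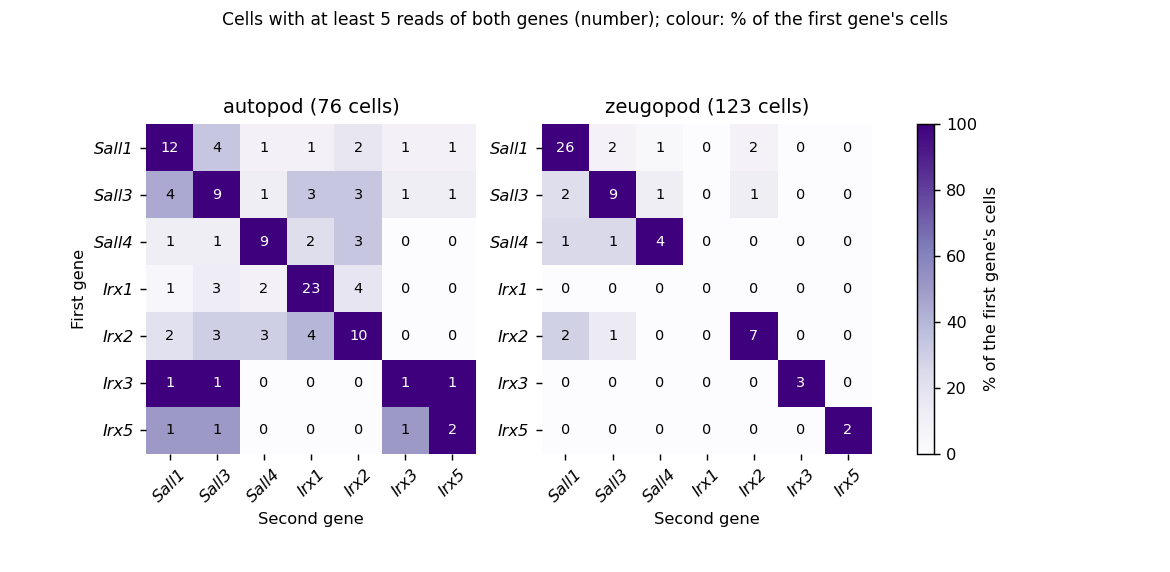
Number of cells with at least 5 reads of both genes of a pair, in autopod (left) and zeugopod cells (right); the diagonal gives the cells with each gene, and the colour is the percent of the row gene's cells. Sall1 and Sall3 share 4 autopod cells and Irx1 and Irx2 also 4, whereas Sall1 and Irx1 share 1 of their 12 and 23 cells.

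Of the 21 pairs of members, 15 shared at least 1 autopod cell and 5 at least 1 zeugopod cell. The IrxA pair shared 4 autopod cells, 17.4% of the cells with Irx1 and 40% of those with Irx2, and all 4 came from NXT0072. Over the cells of both tissues with either gene, 11.1% had both (4 of 36, 3.11 to 26.1). The IrxB pair shared 1 of 7 cells (14.3%, 0.361 to 57.9), the cell A_82. At the minimum of 5 reads, no cell had a gene of each cluster, since Irx1 and Irx2 shared 0 cells with Irx3 and Irx5. Below that minimum, the zeugopod cell Z_73 had 14 reads of Irx2 and 1 of Irx3. The zeugopod cell Z_51, with Irx3 present, had 1 read of Irx2. Only 7 cells had Irx3 or Irx5, so few shared cells could be seen. Whether the clusters exclude each other was not tested.

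Among the Sall genes, Sall1 and Sall3 shared 4 autopod cells, 33.3% of those with Sall1 and 44.4% of those with Sall3, and 2 zeugopod cells, 7.69% and 22.2%. These 6 cells were all from NXT0072 and NXT0142, which held most of the cells with Sall3. NXT0072 also held 59 of the 76 retained autopod cells. Sall4 shared 1 autopod cell and 1 zeugopod cell with Sall1, and 1 of each with Sall3.

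Sall1 and Irx1 had the lowest rank correlation of the 10 pairs that the normalized table holds, in the autopod. They shared 1 autopod cell (A_53, with 6 reads of Sall1), 8.33% of the cells with Sall1 and 4.35% of those with Irx1. Spearman's rho of their normalized values over the 76 autopod cells was -0.27, with -0.19 in NXT0072 and -0.45 in NXT0143. Over these 10 pairs rho ran in the autopod from this value to 0.19 for Irx1 and Irx2, with a median of 0.06. In the zeugopod it ran from -0.03 to 0.25, with a median of 0.14. The highest value there was for Sall1 and Sall4, which shared 1 zeugopod cell. Pairs with Irx1 rest there on its single read. These are descriptions over cells of 1 pool per tissue that share libraries and depth, and most values are ties at 0 reads.

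Autopod cells with Irx1 were then set beside those without it, for the limb genes and cell type markers on the lists. All 23 cells with Irx1 had Hoxd13, the most posterior HoxD gene, and Sox9, the regulator of cartilage fate, beside 42 and 49 of the 53 cells without it. Gdf5, which marks the forming joints, was present in 8 of 23 (34.8%, 16.4 to 57.3) and 6 of 53 (11.3%, 4.27 to 23.03) cells, with intervals that overlap. Of the other cartilage genes, Col2a1 was present in 17 of 23 and 26 of 53 cells (in NXT0072 in 12 of 17 and 17 of 42, in NXT0143 in 5 of 6 and 9 of 11), Col9a1 in 14 of 23 and 34 of 53, Acan in 4 of 23 and 6 of 53, and Matn1 in 0 of both. Ptch1, a receptor and target of Hedgehog signalling, was present in 15 of 23 and 21 of 53. Prrx2, a homeobox gene of limb mesenchyme, was present in 2 of 23 cells (8.70%, 1.07 to 28.04) and 25 of 53 (47.2%, 33.3 to 61.4), which are intervals that do not overlap. Twist1 and Prrx1, also of undifferentiated mesenchyme, were in 9 and 10 of 23 cells and in 34 and 37 of 53. The share of all genes whose intervals do not overlap at this split of cells was not determined.

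The 4 listed genes of dividing cells were each present in a smaller share of the cells with Irx1. For this split of cells, and for the split by these genes below, the share of all genes with intervals that do not overlap was not determined. Ccnb1, the mitotic cyclin B1, was present in 0 of 23 cells with Irx1, where the interval reaches 14.8%, and in 15 of 53 without it (28.3%, 16.8 to 42.3). Mki67 was present in 4 of 23 and 19 of 53, Top2a in 9 of 23 and 36 of 53, and Cdk1 in 5 of 23 and 21 of 53, with intervals that overlap for these 3 genes and not for Ccnb1. Of the 18 autopod cells with at least 3 of these 4 genes, 0 had Irx1 (interval up to 18.5%), while 23 of the 58 other cells had it (39.7%, 27.05 to 53.4). In NXT0072 the counts were 0 of 16 and 17 of 43; NXT0143 had only 2 such cells, with Irx1 in 0 of them, and says little. The cells with at least 3 of these genes had a median of 4170.5 genes detected beside 3402 in the others. In NXT0072 the cells with Irx1 had a median of 3133 genes detected beside 3534 in those without it, and the part of depth was not tested.

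With every cell thinned to 500000 reads and Irx1 still called on all reads, Prrx2 was at 5 or more reads in 1 of 21 cells with Irx1 and 22 of 51 without it, and Ccnb1 in 0 of 21 and 9 of 51. The intervals for Prrx2 still did not overlap (0.120 to 23.8 and 29.3 to 57.8), while those for Ccnb1 then overlapped (0 to 16.1 and 8.40 to 30.9), as they did within NXT0072 on all reads (0 to 19.5 and 17.6 to 47.1). Over the runs, Prrx2 was present in 2 of 17 and 24 of 42 cells in NXT0072 but in only 0 of 6 and 1 of 11 in NXT0143, so its gap rests on NXT0072. Gdf5 was in 5 of 17 and 2 of 42 cells in NXT0072 and in 3 of 6 and 4 of 11 in NXT0143. Of the genes compared, those named here were picked for the size of their gap, so intervals that do not overlap are a description only.

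**Figure D5:**
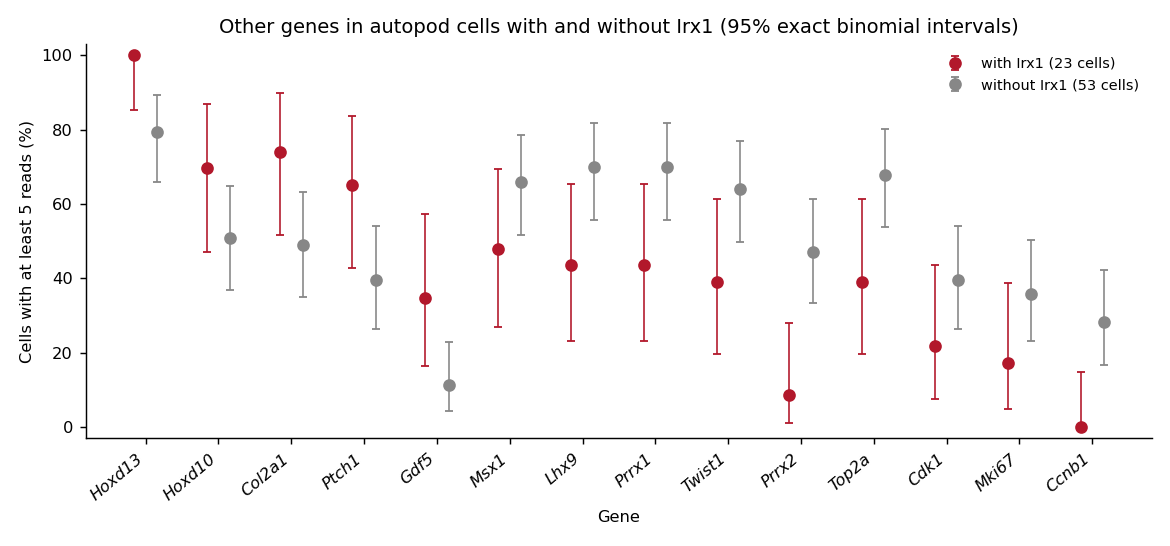
Percent of autopod cells with at least 5 reads of each of 14 genes (y axis) in the 23 cells with Irx1 (red) and the 53 without it (grey), with 95% exact binomial intervals. The red points are higher for Hoxd13, Hoxd10, Col2a1, Ptch1 and Gdf5 and lower for the other genes, and for Prrx2 and Ccnb1 the intervals do not overlap. The genes shown were picked from those compared.

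Autopod cells with Sall1 were set beside those without it in the same way. Tbx5, the T-box gene that specifies the forelimb, was present in 9 of 12 cells with Sall1 (75.0%, 42.8 to 94.5) and 23 of 64 without it (35.9%, 24.3 to 48.9). Hoxd13 was present in 7 of 12 and 58 of 64 cells, and Gli3, the main transducer of Hedgehog signalling in the limb, in 7 of 12 and 57 of 64. In NXT0143 the 3 cells with Sall1 had neither gene, beside 11 and 13 of 14 cells, while in NXT0072 7 of 9 had each, beside 47 and 44 of 50. The intervals overlap for all 3 genes, by little for Tbx5 and Hoxd13 (27.7 to 84.8 and 80.7 to 96.5 for Hoxd13).

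In the zeugopod, Shox2, a regulator of limb bone growth, was present in 15 of 26 cells with Sall1 and 58 of 97 cells without it (intervals 36.9 to 76.6 and 49.3 to 69.6). The order was not the same in the runs, with 9 of 14 and 22 of 44 in NXT0142 and 6 of 12 and 36 of 53 in NXT0143. Of the tendon genes, Tnc, also a matrix gene of perichondrium, was present in 4 of 26 and 37 of 97 cells, Scx in 8 of 26 and 27 of 97, and Tnmd in 0 of 26 and 2 of 97. Hand2, a factor of the posterior limb bud, was present in 14 of 26 and 33 of 97. The gap for Tnc was in the same direction in both runs, with 3 of 14 and 16 of 44 in NXT0142 and 1 of 12 and 21 of 53 in NXT0143, and all these intervals overlap.

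Cells were also sorted by markers of cartilage, interdigit and tendon. Among autopod cells with at least 3 of 5 chondrogenic genes, Irx1 was present in 13 of 35 cells (37.1%, 21.5 to 55.1), beside 10 of 41 other cells (24.4%, 12.4 to 40.3). Sall4 showed the opposite order, with 1 of 35 (2.86%, 0.0723 to 14.9) and 8 of 41 (19.5%, 8.82 to 34.9), and so did Irx2, with 3 of 35 and 7 of 41. In the zeugopod, Sall1 was present in 11 of 38 chondrogenic cells and 15 of 85 others, and Irx2 in 0 of 38 and 7 of 85. The order for Sall4 was reversed there, with 3 of 38 and 1 of 85. Of autopod cells with 2 of the 3 interdigit genes, 4 of 17 had Sall4 and 4 of 17 had Irx2, beside 5 and 6 of the 59 other cells. All of these intervals overlap. Of the 17 zeugopod cells with 2 of 3 tendon genes, 3 had Sall1, beside 23 of the others, and no autopod cell reached 2 tendon genes.

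The genes whose normalized values were most like those of a member were sought over the cells of a tissue, among 4031 to 4304 genes, those present in 25% or more of these cells. Only genes with a rho of 0.2 or above in each run were considered. For Irx1 the closest was then Fibin, which encodes a secreted factor known from fin bud initiation, with a Spearman's rho of 0.53 over 76 autopod cells (0.54 in NXT0072 and 0.48 in NXT0143). Fibin had 5 reads in 15 of the 23 cells with Irx1, and it was the only such gene at 0.4 or above. The next were Sulf1, a heparan sulfate endosulfatase, at 0.38 and Hes1, a repressor downstream of Notch, at 0.38.

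For Sall4 the closest of these genes was Slc20a1, a phosphate transporter, at 0.45 (0.46 and 0.30 by run), and for Sall3 it was Rc3h1, which encodes the RNA-binding protein Roquin-1, at 0.40 (0.39 and 0.45). Given the number of genes detected in a cell, rho was 0.42 for Slc20a1 and 0.39 for Rc3h1, the second below 0.4. Without the limit in each run, the highest rho for Sall3 was 0.42. For Sall1, no gene that met the limit in each run reached 0.4, while without that limit the highest was 0.42 in the autopod. The highest that met it were Hn1l at 0.39 in the autopod and Axl, a receptor tyrosine kinase, at 0.37 in the zeugopod. For Irx2, 23 genes that met it reached 0.4, with the splicing kinase gene Prpf4b at 0.45, the chromatin remodeller gene Chd7 at 0.45 and the chaperonin gene Cct2 at 0.44. Irx2 itself had a rho of 0.35 with the number of genes detected in a cell, and given that number the 3 values were 0.34, 0.38 and 0.31, below 0.4. These correlations share libraries, depth and many ties at 0 reads.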

How the data were processed

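The authors mapped 75-base reads uniquely to mm10 (GRCm38) and the spike-in sequences with bowtie2 in local mode and deposited raw counts per Ensembl gene for 225 cells. The deposited normalized signal covers the 199 retained cells, 76 autopod and 123 zeugopod; the authors divided counts by spike-in size factors, centred within each batch, with scran, and by gene length. Of its values, 99.9563% were whole multiples (within 1e-06) of the value of a gene with 0 reads, so a pseudocount of 1 normalized count precedes the division. The 92 spike-in rows were not used. The retained cells are those of this normalized signal. The authors' filter, on mapped reads, genes detected and spike-in share, was not run again here. With spike-ins left out, the fewest genes detected in a retained cell were 1992 in the autopod and 1801 in the zeugopod.

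Shares of cells (at least 5 raw reads), CPM on gene reads, means of log2(normalized value + 1) and Spearman correlations were computed with Python 3.11.15, numpy 2.4.6, pandas 2.3.3 and scipy 1.17.1, and plots with matplotlib 3.10.9; scripts were checked on simulated data. No test was made, since each tissue is 1 pool. Intervals are 95% Clopper-Pearson or exact Poisson. Depth runs from 186271 to 9437447 gene reads per cell, and 0 pairs of cells had identical counts; doublets were not called. Named genes were the 7 members, family and cluster neighbours, limb factors, 7 genes foreign to limb, cell type markers, and, for each member present in at least 10% of a tissue's cells, the 3 genes with the highest correlation, among genes in at least 25% of cells and at 0.2 or above in each run. The members and lists were chosen with earlier results of these data known. Alternatives were other read minimums, thinning to 500000 reads, pseudocounts of 0.1 and 10, CPM, low-value filters and single runs. Sequences came from GENCODE vM21. Irx3os and 3 of 4 blood markers had no unique row among the gene names and were not analysed here.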

Additional observations from a re-analysis of the deposited data

Results flagged for a closer look

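Libraries that the study did not retain were left out of every comparison above. Among the 20 autopod libraries of this kind, Irx1 reached 5 reads in 2, with 5 and 20 reads, while 0 of the 6 zeugopod libraries had a read of it and the highest value in a retained zeugopod cell was 1 read. The library with 20 reads had 21552 reads on genes and 729 genes detected, and the one with 5 reads had 82610 reads on genes. The other 6 members did not reach 5 reads in any of the 26 libraries.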

How the results depend on the processing

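No paired analysis was possible because no result came from a test and cells carry no replicate numbers that tie the tissues. No called difference changed sign. The share of autopod cells with a member was 60.5% at 5 reads, 81.6% at 1 read, 42.1% at 20 reads, 43.4% at a normalized value of 5 and 34.7% after thinning to 500000 reads; that of zeugopod cells was 36.6%, and 52.8% at 1 read, 23.6% at a normalized value of 5 and 28.6% after thinning. The Irx1 and Irx2 overlap of 11.1% was 0% at 20 reads (0 of 18), after thinning (0 of 13), and in NXT0143 autopod (0 of 8), NXT0142 zeugopod (0 of 4) and NXT0143 zeugopod (0 of 3) cells; that of Irx3 and Irx5, 14.3%, was 0% in each zeugopod run (0 of 3 and 0 of 2). The members past 1 log2 unit numbered 1, and 0 with a pseudocount of 10 and 2 between NXT0072 and NXT0142, where Sall1 was at -1.03. Of 80 alternatives to the shares per member, 18 lay outside the interval; of 36 to the differences, 4 changed sign or crossed 1 log2 unit; of 76 to the correlations, 11 moved by 0.1 or more. After thinning, Irx1 was present in 11 and Irx2 in 1 of 72 autopod cells.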
